A study of Mus musculus with 9 samples.

Results

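S3-type nuclei after injury were the nuclei of kidneys with ischemia-reperfusion injury (IRI) in which transcripts of the straight last segment of the proximal tubule outnumbered those of its first and second segments. A nucleus was S3-type when its raw UMI counts (unique molecular identifiers, 1 per captured transcript) of Cyp7b1, Slc22a19, Slc22a7 and Slc7a13 summed to 3 or more and exceeded its sum of Slc5a12, Slc5a2 and Slc6a19. This rule chose 709 of 14622 IRI nuclei, of 27738 nuclei in all: 388 at day 28 and 321 at day 7. The same rule chose 2149 control nuclei, which served for comparison.

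The S3 segment runs through the outer stripe of the outer medulla, where oxygen supply is low, and in rodents it is the part of the tubule most damaged by ischemia. Its cells take up amino acids, organic anions and sugars left by the earlier segments, burn fatty acids, and in male mice express genes that depend on androgen. Injured proximal tubule cells switch on genes such as Havcr1 (KIM-1) and can regain their segment's genes as they recover, or retain a Vcam1-positive state described as failed repair.

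Both IRI groups were male mice of the line Krt20T2A-CE; INTACTnuGFP/+, dosed with tamoxifen at 0.05 mg/g, built to trace cells that express Krt20, a keratin gene of injured tubule, by nuclear GFP. Both renal pedicles had been clamped for 18 min, and kidneys were taken at day 28 from 3 mice and at day 7 from 2 mice. The 4 control mice, 3 with sham surgery and 1 without surgery (control 1), were Six2TGC; Rosa26rtTA ; pTRE-H2BeGFP males on doxycycline food at 625 mg/kg, in which GFP marks nephron nuclei. All mice were 11 to 19 weeks old and all libraries were made from GFP-positive sorted nuclei. Injury, reporter line and sorted population therefore cannot be told apart in any comparison with controls, whereas day 28 and day 7 share line, drug and sort. Serum creatinine 48 h after clamping was 0.488 mg/dL in day 28 mouse 1, above the 0.208 and 0.228 mg/dL of the other day 28 mice and the 0.255 and 0.133 mg/dL of the day 7 mice.

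The libraries held 1397 to 4564 nuclei and 1833617 to 14641038 UMIs. The median S3-type nucleus had 1817, 3194 and 5194 UMIs in day 28 mice 1 to 3, 5527 and 3294 in day 7 mice 1 and 2, and 2520, 2199, 2540 and 987 in controls 1 to 4. Day 28 mouse 1 and the controls carried cell barcodes of one set and the other 4 libraries those of another set, so in comparisons with controls the barcode set mostly follows the injury. Of 27606 barcodes, 132 occurred in more than 1 library, among them those of 7 S3-type IRI nuclei and 36 S3-type control nuclei. Transcripts of other cell types in the S3-type nuclei are given by the sums of 8 marker lists, in CPM (UMIs of a gene as counts per 1e6 UMIs of the summed nuclei). Thick ascending limb markers summed to 738 to 1093 CPM at day 28, 965 and 1031 CPM at day 7 and 753 to 1288 CPM in controls. Distal and collecting duct markers summed to 1477, 343 and 2244 CPM at day 28, 384 and 429 CPM at day 7 and 246 to 920 CPM in controls. The gene Slc8a1 supplied most of the larger sums, and without it the list had 630, 283 and 424 CPM at day 28, 257 and 244 CPM at day 7 and 150 to 330 CPM in controls. Thin limb markers summed to 64.4, 53.2 and 78.5 CPM at day 28, 125 and 139 CPM at day 7 and 43.8 to 129 CPM in controls. Podocyte and parietal markers summed to 54.2, 47.7 and 25.0 CPM at day 28, 112 and 64.5 CPM at day 7 and 8.35 to 32.4 CPM in controls. Endothelial markers summed to 17.8 to 51.4 CPM at day 28, 126 and 71.5 CPM at day 7 and 68.8 to 113 CPM in controls, and leukocyte markers to 47.4 to 107 CPM, 66.0 and 85.4 CPM and 23.5 to 142 CPM in the same order of groups. Thin limb, podocyte and endothelial sums were thus lower in every day 28 library than at day 7. Stromal markers reached 232 CPM in day 28 mouse 3, against 9 to 99 CPM in the other 8 libraries, the urothelial list 107 CPM against 1.02 to 16.7 CPM, and the urothelial marker Upk1b had 48 UMIs in that library and at most 1 elsewhere. Their part in the results was not tested. Krt20 itself had a UMI in 0.773% of S3-type nuclei at day 28, 2.80% at day 7 and 0.186% in controls.

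The genes of the rule are a description of the selection and carry no test. Slc7a13, an S3 transporter of acidic amino acids and cystine (chromosome 4, 19818725 to 19842218, plus strand, GRCm38), stood at 2243, 853 and 941 CPM in the day 28 libraries, 713 and 791 CPM in the day 7 libraries and 2337, 2347, 1922 and 3193 CPM in the controls. Cyp7b1, the oxysterol 7-alpha-hydroxylase (chromosome 3, 18071950 to 18243338, minus strand), had 2040, 3982 and 721 CPM at day 28, 858 and 1084 CPM at day 7 and 1539, 752, 587 and 918 CPM in controls. Slc7a13 was thus near control level in day 28 mouse 1 alone among the IRI libraries, and Cyp7b1 was highest in day 28 mouse 2. The other selecting genes are organic anion transporters. Slc22a19 (chromosome 19, 7673061 to 7711310, minus strand) had 830, 411 and 109 CPM at day 28, 219 and 155 CPM at day 7 and 120 to 363 CPM in controls. Slc22a7 (chromosome 17, 46432183 to 46438457, minus strand) had 146, 27.5 and 7.13 CPM at day 28, 14.8 and 36.6 CPM at day 7 and 55.3 to 288 CPM in controls.

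Which gene carried a nucleus past the threshold differed with injury. Cyp7b1 supplied 38.8%, 75.5% and 40.6% of the 4 genes' UMIs in the day 28 libraries, 47.6% and 52.4% in the day 7 libraries and 19.3% to 35.2% in the controls. A total of 30 of 388 day 28 members (7.73%), 75 of 321 day 7 members (23.4%) and 8 of 2149 control members (0.372%) had Cyp7b1 UMIs alone and none of the other 3 genes. The Cyp7b1-alone members had low proximal tubule transcripts: the phosphate transporter Slc34a1 stood at 226 CPM in them and 1543 CPM in the other members at day 28, and at 122 CPM and 1157 CPM at day 7. Cp (ceruloplasmin) ran the other way, at 806 CPM in Cyp7b1-alone members and 287 CPM in the others at day 28, and at 1683 CPM and 490 CPM at day 7. At the edge of the rule, 73 day 28 nuclei, 90 day 7 nuclei and 473 control nuclei were members with a sum of exactly 3, and 143, 177 and 683 nuclei with a sum of 2 fell just outside. The nuclei just inside had 1766, 749 and 3712 CPM of Slc34a1 in the same group order, and those just outside 1238, 767 and 3652 CPM. Among members, 89.9%, 87.5% and 61.3% had no UMI of the 3 excluding genes.

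**Figure D1:**
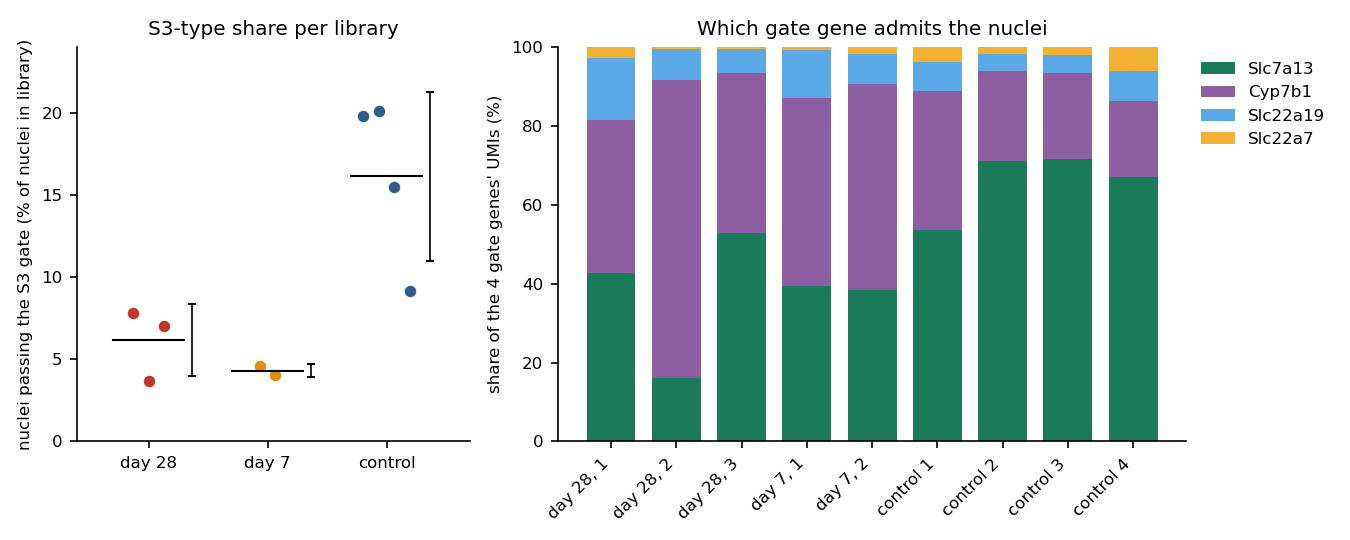
Left, share of S3-type nuclei by library (left to right day 28, day 7, control), 1 point per mouse, with the line at the mean and the whisker at 1 SD. Right, share of the UMIs of the 4 selecting genes that each gene supplied, as stacked bars by library in the same order. The share of S3-type nuclei averaged 6.17% at day 28, 4.31% at day 7 and 16.1% in controls, and the selecting genes are shown without a test because they define the nuclei.

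S3-type nuclei made up 7.84%, 3.67% and 7.02% of all nuclei in the day 28 libraries, 4.57% and 4.04% in the day 7 libraries and 19.8%, 20.1%, 15.5% and 9.14% in the controls. The day 28 and day 7 libraries overlapped, and every IRI library lay below every control. The mean was 6.17% ± 2.21 (SD, n = 3) at day 28 and 4.31% ± 0.377 (SD, n = 2) at day 7, a difference of 1.86 points (two-sided exact permutation test over libraries, p = 0.4, smallest possible p 0.1). Without day 28 mouse 1 the difference was 1.03 points, and without day 28 mouse 2 it was 3.12 points. Against 16.1% ± 5.12 in controls (SD, n = 4) the difference was -9.96 points at day 28 (exact permutation p = 0.0571) and -11.8 points at day 7 (exact permutation p = 0.0667, the smallest possible). Counted against proximal tubule nuclei alone (S3-type plus S1-S2-type, chosen by the mirror-image rule), the order turned: the share was 52.3%, 27.5% and 36.2% at day 28, 42.8% and 41.0% at day 7 and 24.2% to 42.3% in controls, with differences of -3.22 points between day 28 and day 7, 5.71 between day 28 and control and 8.92 between day 7 and control (exact permutation p = 0.7, 0.514 and 0.267). The lower share after injury was thus seen among all nuclei and was not seen among proximal tubule nuclei. The sorted populations differ between the reporter lines, and their part in the shares cannot be told apart from injury.

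Markers of the S3 segment that the rule did not use were present in the selected nuclei. The 22 genes of this list summed to 13601, 10758 and 11492 CPM in S3-type nuclei of the day 28 libraries, 8633 and 9682 CPM in those of day 7 and 11386 to 14320 CPM in those of controls, against 2359 to 4378 CPM in S1-S2-type nuclei and 948 to 2948 CPM in endothelium-type nuclei of the IRI libraries. In controls the S1-S2-type nuclei had 4259 to 6053 CPM, and the endothelium-type nuclei 2015, 7536, 6961 and 3763 CPM. The endothelium-type sums, here and below, held 32, 85 and 50 nuclei at day 28, 118 and 83 at day 7 and 15, 10, 20 and 4 in controls. With 3986 to 43962 UMIs per library, the control sums were the smallest. Endothelium-type nuclei, chosen by endothelial transcripts, should lack tubule transcripts, and whether those in them came from free RNA or doublets was not tested. In every library the S3-type nuclei had the highest level of the 3 kinds. The label S3 holds less well for the Cyp7b1-alone members. At day 7 they had 564 CPM of Slc27a2, against 1154 CPM in the other members. Lrp2, the endocytic receptor, stood at 242 CPM, against 1774 CPM. In day 28 mouse 2 the levels were 601 against 1444 CPM of Slc27a2 and 624 against 1803 CPM of Lrp2. In day 28 mouse 3 they were 365 against 1725 CPM and 278 against 1198 CPM. Day 28 mouse 1 had 1 such nucleus.

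Between day 28 and day 7, edgeR's quasi-likelihood test on UMI counts summed per library called none of the 22 S3 identity genes at a Benjamini-Hochberg adjusted p under 0.05, while 2.01% of the 8844 genes tested were called higher and 0.746% lower. At an unadjusted p under 0.05 there were 4 such genes, and DESeq2 called 2. The median change of the list was 0.41 on the log2 scale, against -0.01 over all genes tested. Atp11a, a phospholipid flippase, had 1207, 1847 and 2619 CPM at day 28, 1246 and 1257 CPM at day 7 and 1085 to 1476 CPM in controls, so that the groups overlapped. The acyl-CoA synthetase Slc27a2 had 1124, 1320 and 1454 CPM at day 28, 857 and 1072 CPM at day 7 and 1473 to 1863 CPM in controls. Both IRI groups lay below the controls for Slc27a2, and the day 28 libraries lay above those of day 7 (log2 change 0.43 ± 0.26 SE, adjusted p = 0.41). Acy3, an aminoacylase, had 371, 79.2 and 141 CPM at day 28, 45.2 and 32.1 CPM at day 7 and 313 to 702 CPM in controls. Its change of 2.27 ± 0.58 on the log2 scale missed the threshold (edgeR adjusted p = 0.055).

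Against controls, 2 of the 22 S3 genes were higher at day 28 and 4 lower, where 8.83% and 8.08% of all genes tested were called higher and lower. Both that rose were higher in every IRI library than in any control. Bcat1, which starts the breakdown of branched-chain amino acids in the cytosol (chromosome 6, 144993835 to 145076184, minus strand), had 564, 514 and 573 CPM at day 28, 186 and 556 CPM at day 7 and 67.3, 18.7, 39.4 and 108 CPM in controls. The day 28 change was 3.40 ± 0.47 on the log2 scale (edgeR adjusted p = 0.00073). Slc7a12, an amino acid transporter of the same family as Slc7a13 (chromosome 3, 14480697 to 14505830, plus strand), had 643, 424 and 60.5 CPM at day 28, 725 and 423 CPM at day 7 and 5.83, 21.1, 17.3 and 30.3 CPM in controls. Its change was 4.53 ± 0.66 at day 28 (edgeR adjusted p = 0.00096) and 5.17 ± 0.69 at day 7 (edgeR adjusted p = 0.00018), with day 28 mouse 3 the lowest of the IRI libraries. Endothelium-type nuclei of the day 28 libraries held 44.1 CPM of Bcat1 and 37.3 CPM of Slc7a12, below each gene's level in S3-type nuclei. Both day 28 calls stood in all 19 alternative fits, including those with the barcode set as a term or within 1 barcode set.

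The S3 genes that fell at day 28 were Aadat, Cyp2e1, Kap and Ggt1. Aadat, an aminotransferase of the kynurenine and lysine pathways, had 110, 255 and 227 CPM at day 28, 354 and 516 CPM at day 7 and 465 to 919 CPM in controls (day 28 log2 change -1.86 ± 0.33, edgeR adjusted p = 0.0026). Kap, the kidney androgen-regulated protein, had 757, 744 and, in mouse 1, 1970.4 CPM at day 28, 697 and 606 CPM at day 7 and 2051 to 5043 CPM in controls (-1.63 ± 0.39, edgeR adjusted p = 0.012). Ggt1, the gamma-glutamyltransferase of the brush border, fell by 1.06 ± 0.31 on the log2 scale (edgeR adjusted p = 0.034) and the cytochrome Cyp2e1 by 1.93 ± 0.45 (edgeR adjusted p = 0.010). At day 7, Slc7a12 and Bcat1 were higher than in controls and 5 genes lower: Acy3 (-3.52), Kap (-2.45), Cyp2e1 (-1.86), Slc27a2 (-0.83) and the organic anion transporter Slco1a6 (-0.81). Over all genes tested, 16.1% were called higher at day 7 and 17.4% lower. The other members of the list did not pass in either comparison with controls: Slc5a1, Slc5a10, Slc1a1, Slc6a18, Slc3a1, Atp11a, Rnf24, Mep1a, Agt, Napsa, Akr1c21, Serpina1f and Slc22a30. In a fit that also held a term for the barcode set, the day 28 calls were Bcat1, Slc7a12 and Aadat, where 0.667% of all genes were called higher and 0.17% lower.

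**Figure D2:**
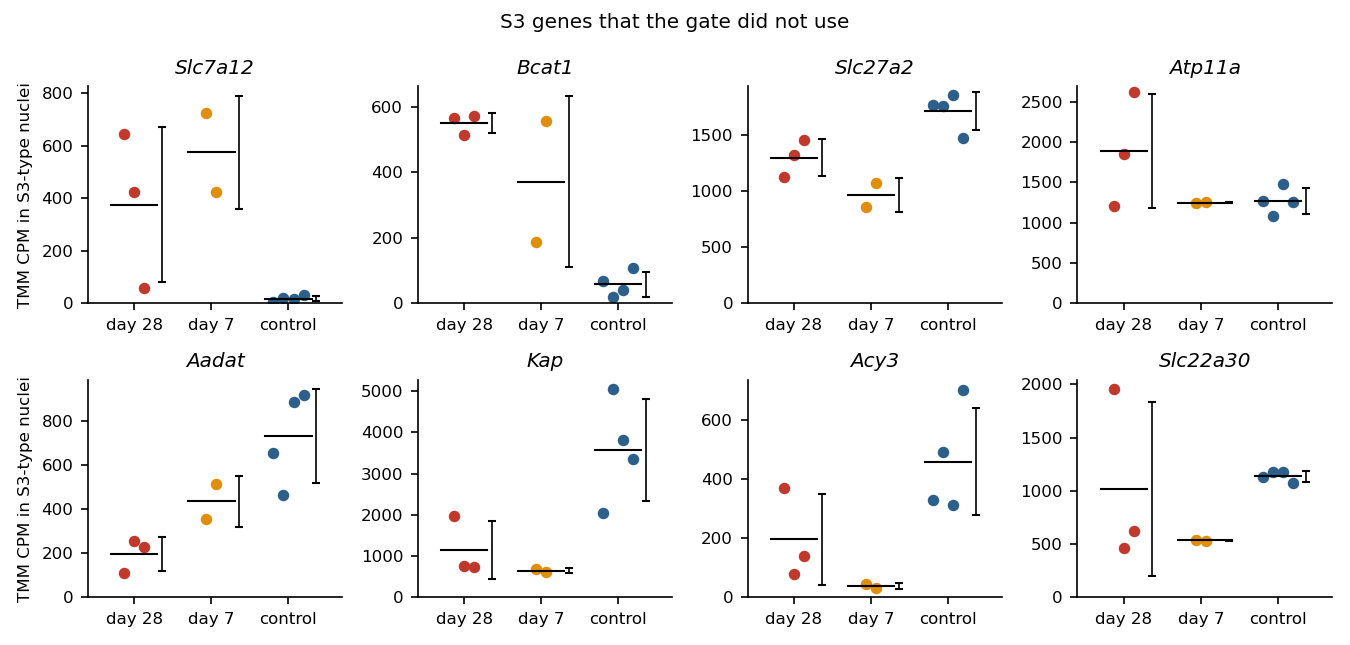
Levels of 8 S3 identity genes that the rule did not use, in CPM by library (left to right day 28, day 7, control), 1 point per mouse, line at the mean, whisker at 1 SD. Slc7a12 and Bcat1 were higher in every IRI library than in the controls, and Kap was highest in the controls.

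Day 28 differed from day 7 at 244 of 8844 genes (2.76%), of which 178 rose and 66 fell. Of the 244 calls, 23 stood in all 18 alternative fits. Among the genes described below for this comparison, only Wdr17, Far1os, Lrrc4 and Cdh13 were among them. The day 7 group had 2 mice, and leaving out day 7 mouse 1 or mouse 2 left 61 and 29 calls. Pck1, the entry enzyme of gluconeogenesis, had 671, 289 and 348 CPM at day 28, 128 and 85.5 CPM at day 7 and 377 to 855 CPM in controls (log2 change 2.00 ± 0.43, edgeR adjusted p = 0.024). Fth1, the ferritin heavy chain that stores iron, had 722, 458 and 402 CPM at day 28, 103 and 133 CPM at day 7 and 1736 to 2773 CPM in controls (2.16 ± 0.35, edgeR adjusted p = 0.0065). Day 28 reached the control range for Pck1 in mouse 1 and stayed below it for Fth1 in every mouse. Bbox1, the last enzyme of carnitine synthesis, had 17.2, 63.4 and 37.6 CPM at day 28, 0.767 and 0 CPM at day 7 and 1.79 to 6.49 CPM in controls (edgeR adjusted p = 0.0059). G0s2, an inhibitor of triglyceride lipolysis, had 37.8, 14.1 and 22.9 CPM at day 28, 0.767 and 0 CPM at day 7 and 50.9 to 102 CPM in controls (edgeR adjusted p = 0.0073). Day 7 held a single UMI of each, so no fold is given, and Bbox1 at day 28 lay above both other groups.

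Further genes were called higher at day 28. Slc16a4, a monocarboxylate transporter-family member, had 65.3, 73.9 and 68.7 CPM at day 28, 26.1 and 21.4 CPM at day 7 and 60.4 to 85.4 CPM in controls (1.53 ± 0.30, edgeR adjusted p = 0.016). Acox3, a peroxisomal oxidase of branched fatty acids, rose by 1.14 ± 0.27 (edgeR adjusted p = 0.041). The cytochrome Cyp2d9 had 61.9, 86.3 and 68.7 CPM at day 28, 9.20 and 19.8 CPM at day 7 and 101 to 308 CPM in controls (2.42 ± 0.52, edgeR adjusted p = 0.024), so that every day 28 library stayed below the controls. Both were named after their values were seen. Wdr17, a WD-repeat gene named for the same reason, had 595, 544 and 793 CPM at day 28, 39.9 and 39.7 CPM at day 7 and 381 to 849 CPM in controls. Its day 28 level matched the control range and its day 7 level was the low one (4.01 ± 0.42, edgeR adjusted p = 0.00046), and the call stood in all 18 alternative fits. Endothelium-type nuclei held 180 CPM of Wdr17 at day 28 and 14.5 CPM at day 7, so the difference was also seen outside S3-type nuclei.

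Non-coding transcripts were frequent among the rises. Of the 178, 83 were protein-coding, 73 antisense and 19 lincRNA genes in GENCODE, so that 52.6% of those with a type were not protein-coding, compared with 4.66% of all genes tested and 3.03% of the 66 falls. By the size rule the leading rises were Vmn1r18, Bbox1, Far1os, Ube4bos1, G0s2, Sorbs2os, B3gat1, Mrpl41, Lrrc4 and Pard3bos1. Far1os, on the opposite strand of Far1, had 89.4, 106 and 110 CPM at day 28, 2.30 and 1.53 CPM at day 7 and 21.2 to 26.8 CPM in controls (5.57 ± 0.42, edgeR adjusted p = 3.4e-05). Lrrc4, a leucine-rich repeat adhesion protein, had 107, 107 and 93.2 CPM at day 28, 5.37 and 3.05 CPM at day 7 and 13.0 to 39.4 CPM in controls (4.46 ± 0.45, edgeR adjusted p = 0.00042). Vmn1r18, annotated as a vomeronasal receptor gene, had 44.7, 227 and 232 CPM at day 28, 3.83 and 0 CPM at day 7 and 5.30 to 21.7 CPM in controls (edgeR adjusted p = 0.0039). Whether reads were counted by strand is not given in the sources used here, so antisense genes cannot be told from their partner genes. Endothelium-type nuclei moved the same way for 162 of the 178 rises, and Lrrc4 in them stood at 105 CPM at day 28 and 4.35 CPM at day 7. Of the 178 rises, 33 stood at or above the S3-type level in endothelium-type nuclei at day 28. For 85 the S3-type level was 2-fold or more above it. The long nuclear transcript Malat1 took 15.3%, 14.5% and 12.1% of the UMIs of S3-type nuclei at day 28, 9.42% and 5.70% at day 7 and 18.5% to 21.6% in controls. It was lowest in the same 2 libraries, and its part in the result was not tested.

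The falls at day 28 were genes that stood high at day 7. Havcr1, the injury receptor KIM-1, had 61.9, 174 and 39.3 CPM at day 28, 570 and 598 CPM at day 7 and 1.79 to 6.49 CPM in controls (-2.64 ± 0.46, edgeR adjusted p = 0.0090). Abcc4, an exporter of organic anions, had 34.4, 77.5 and 80.2 CPM at day 28, 253 and 264 CPM at day 7 and 7.31 to 19.7 CPM in controls (-1.96 ± 0.35, edgeR adjusted p = 0.011). Diaph3, a formin used in cell division, had 3.44, 5.28 and 6.54 CPM at day 28, 38.3 and 47.3 CPM at day 7 and 3.25 to 4.33 CPM in controls (-2.95 ± 0.48, edgeR adjusted p = 0.0065). Day 28 was at the control level for Diaph3 and between the other groups for Havcr1 and Abcc4. Over all genes tested, 0.746% were called lower at day 28 than at day 7. Of the acute injury list, 3 of 15 tested genes fell: Havcr1, the matrix protein Spp1 (osteopontin, -1.83) and the transcription factor Runx1 (-1.69), with a list median of -1.37. Of the failed-repair list, 3 of 20 fell: the guanine exchange factor Dock10 (-1.77), the kidney cadherin Cdh6 (-1.29) and Cp (-1.24), with a list median of -0.83. With the rule applied without Cyp7b1, edgeR called 2 and 0 of these lists lower, beside 0.302% of all genes, where 7 and 10 genes had an unadjusted p under 0.05. Acsl4, an acyl-CoA synthetase that favours arachidonic acid, fell by 1.41 (edgeR adjusted p = 0.027). The largest falls by the size rule were Dchs2, Ano3, Zfp536, Kcnq5, St3gal1, Hs3st5, Inpp4b, Diaph3, Cdh13 and Rgs20. Cdh13, T-cadherin, a gene that endothelium also expresses, had 13.8, 15.8 and 42.5 CPM at day 28, 222 and 137 CPM at day 7 and 8.36 to 15.4 CPM in controls (-2.81 ± 0.41, edgeR adjusted p = 0.0034) and was the only fall called in all 18 alternative fits. Endothelium-type nuclei of the same libraries held 20.3 CPM of Cdh13 at day 28 and 369 CPM at day 7, above the level in S3-type nuclei at day 7. In all, 44 of the 66 falls stood at or above the S3-type level in endothelium-type nuclei at day 7, and for none of the 66 was the S3-type level 2-fold or more above it. The other 22 falls stood above the endothelium-type level by less than 2-fold, and the source of these transcripts was not tested.

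**Figure D3:**
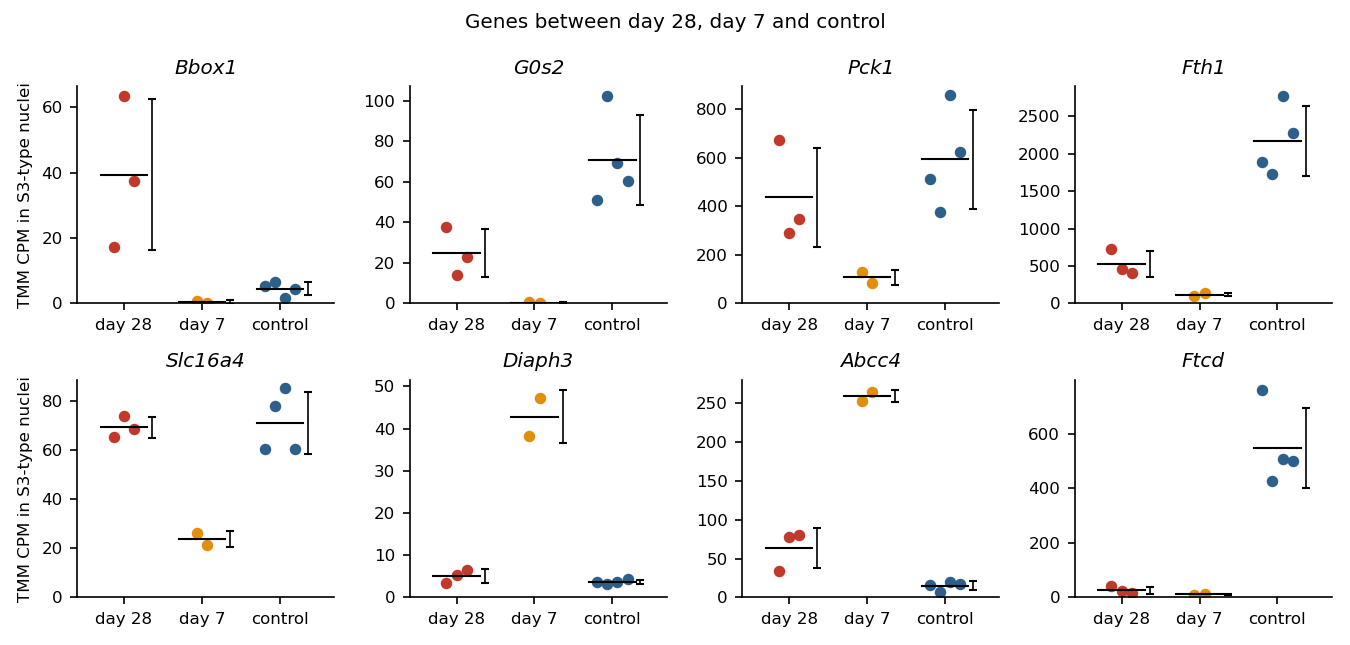
Levels of genes called between day 28 and day 7, and of Ftcd, which was not called between them, in CPM by library (left to right day 28, day 7, control). There is 1 point per mouse, with the line at the mean and the whisker at 1 SD. Bbox1, G0s2, Pck1, Fth1 and Slc16a4 were higher in every day 28 library than at day 7, Diaph3 and Abcc4 were lower, and Ftcd, shown beside them, was low in both IRI groups.

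The share of S3-type nuclei with a UMI of Havcr1 or Vcam1 was read after thinning each nucleus of 1000 or more UMIs to 1000 UMIs. Nuclei with fewer UMIs were left out, which kept 107 of 221 S3-type nuclei in control 4. The share was 7.80%, 10.5% and 8.16% at day 28, 34.7% and 38.4% at day 7 and 0.285% to 0.935% in controls. The highest control share, in control 4, was 1 nucleus. The difference between day 28 and day 7 was -27.8 points with no overlap (exact permutation p = 0.1, the smallest possible), and that between day 28 and control 8.26 points (exact permutation p = 0.0286, the smallest possible). Without thinning the 2 differences were -40.6 and 20.1 points. Endothelium-type nuclei of the same libraries had shares of 40.0%, 12.8% and 6.67% at day 28 and 43.3% and 57.4% at day 7. These were 6 of 15, 6 of 47 and 3 of 45 nuclei at day 28 and 45 of 104 and 31 of 54 at day 7, so the day 28 shares rest on few nuclei. Thick-limb-type nuclei had 21.1%, 11.9% and 12.2% at day 28 and 42.9% and 35.9% at day 7. Over all nuclei of each type, with those under 1000 UMIs included, median depths at day 28 were 2949 UMIs for S3-type and 1170 UMIs for endothelium-type. At day 7 they were 4341 and 2216 UMIs. The S3-type share was at or below the endothelium-type share in 4 of the 5 IRI libraries, with day 28 mouse 3 the exception, and is not read as a difference from background, although Vcam1 is also an endothelial gene. It was not even within the S3-type nuclei of day 7, at 58.3% of Cyp7b1-alone members and 29.6% of the others.

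Compared with controls, S3-type nuclei differed at 1496 genes at day 28 (781 higher, 715 lower, 16.9% of 8844) and at 2971 at day 7 (33.6%; 1428 higher, 16.1%, and 1543 lower, 17.4%). A term for the barcode set left 74 calls at day 28 and 62 at day 7 (0.486% higher and 0.215% lower), so for most of these calls the barcode set and the injury cannot be told apart. Within the set of day 28 mouse 1 and the controls, 33 genes were called (30 higher, 0.269%, and 3 lower, 0.0269%), with 1 IRI mouse whose spread is assumed to be that of the controls. The gene lists counted here were drawn up with results of these data known.

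The failed-repair list, genes reported for Vcam1-positive proximal tubule cells, had 18 of 20 members called higher at day 28 and 19 of 20 at day 7. Its median change was 3.21 on the log2 scale at day 28 and 4.22 at day 7, against 0.02 over all genes at day 28. The acute injury list had 7 of 15 tested members higher at day 28 and 9 at day 7. Over all genes tested, 8.83% were called higher at day 28 and 16.1% at day 7. Kcnh8, a potassium channel of the failed-repair list, had 58.5, 158 and 167 CPM at day 28, 192 and 156 CPM at day 7 and 1.19 to 4.33 CPM in controls (day 28 log2 change 6.08 ± 0.45, edgeR adjusted p = 8.5e-06). Npas3, a transcription factor otherwise known from brain and on neither list, had 141, 241 and 196 CPM at day 28, 225 and 205 CPM at day 7 and 0 to 2.39 CPM in controls (6.67 ± 0.35, edgeR adjusted p = 2.9e-07). Sorcs1, a sorting receptor of the failed-repair list, had 244, 549 and 273 CPM at day 28, 424 and 545 CPM at day 7 and 2.98 to 13.0 CPM in controls (5.61 ± 0.43, edgeR adjusted p = 8.5e-06). Cp, of the same list, had 213, 422 and 250 CPM at day 28, 686 and 716 CPM at day 7 and 17.3 to 26.0 CPM in controls (3.80 ± 0.28, edgeR adjusted p = 8.5e-06). For these 4 genes no IRI library overlapped a control. The other leading rises at day 28 were Tgfb2, Vcam1, Runx1, Cd44, Pard3bos1, CT010465.1 and Edn1, and at day 7 Cd44, Runx1, Havcr1, Traf1, Npas3, Spaca7, Sox9, Dock10, Kcnh8 and Ptchd1.

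As sums, both lists were as high or higher in endothelium-type nuclei. The failed-repair list summed to 3800, 7555 and 6557 CPM in S3-type nuclei at day 28 and 12019 and 11945 CPM at day 7, against 7648, 7568 and 9743 CPM and 15649 and 14610 CPM in endothelium-type nuclei of the same libraries. The acute injury list summed to 1007, 1509 and 1266 CPM in S3-type nuclei at day 28 and 3194 and 3613 CPM at day 7, against 2284, 1572 and 2071 CPM and 4100 and 4179 CPM in endothelium-type nuclei. In each library the sum in S3-type nuclei was below that in endothelium-type nuclei, and the source of these transcripts in either type was not tested. Single members differed: Sorcs1 stood at 393 CPM in pooled day 28 S3-type nuclei and 302 CPM in endothelium-type nuclei, and Cp at 325 CPM and 448 CPM. Of the 781 genes higher at day 28 than in controls, 434 stood at or above the S3-type level in endothelium-type nuclei and 147 had an S3-type level 2-fold or more above it.

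**Figure D4:**
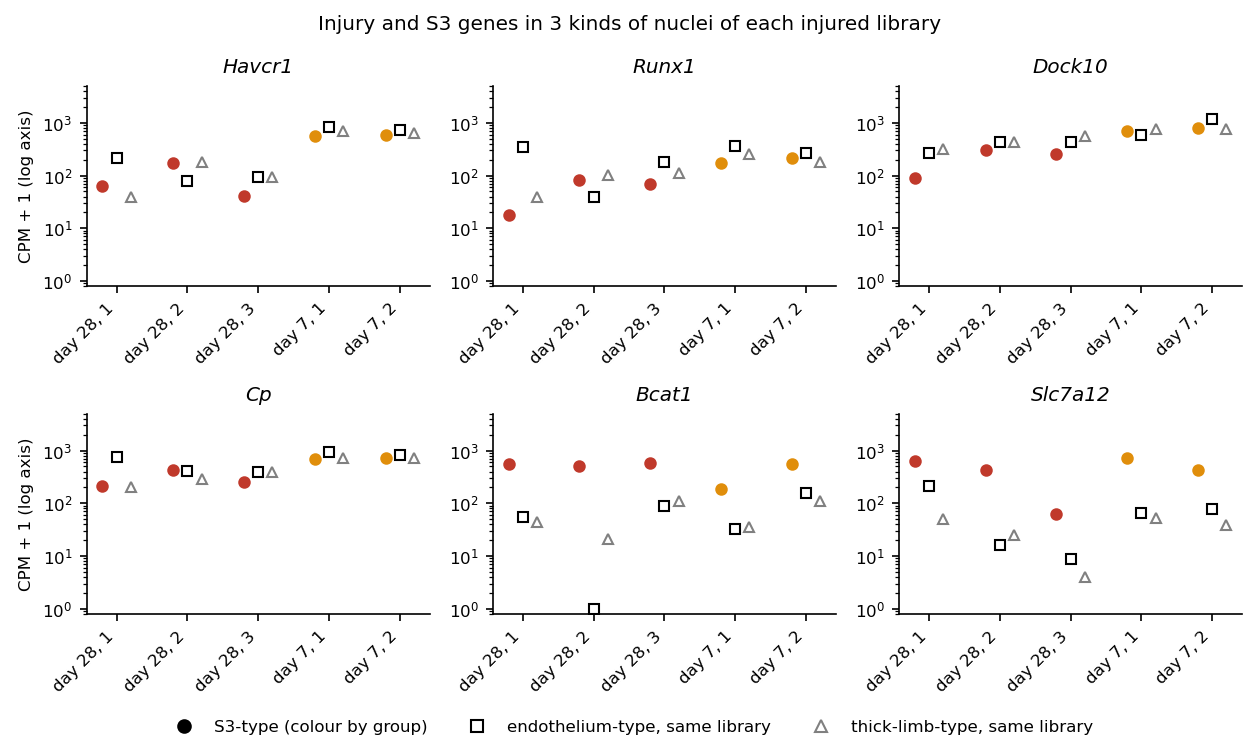
Levels of 6 genes in S3-type, endothelium-type and thick-limb-type nuclei of the 5 IRI libraries, in CPM with 1 added on a log axis (day 28 left of day 7), 1 point per mouse and kind of nuclei. Havcr1, Runx1, Dock10 and Cp were higher in endothelium-type than in S3-type nuclei in 4 of 5 libraries each, and Bcat1 and Slc7a12 were higher in S3-type nuclei in all 5.

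Some rises stood above the endothelium-type level. Npas3 was at 213 CPM in pooled S3-type nuclei and 105 CPM in endothelium-type nuclei at day 28, and at 239 CPM and 182 CPM at day 7. Besides it, Bcat1 and Slc7a12, Rnf180, a membrane ubiquitin ligase named after its values were seen, had 99.7, 292 and 119 CPM at day 28, 79.0 and 145 CPM at day 7 and 0 to 13.0 CPM in controls (4.73 ± 0.53, edgeR adjusted p = 0.00018). Its endothelium-type level at day 28 was 54.3 CPM and the call stood in all 19 alternative fits. Prlr, the prolactin receptor, also named after its values were seen, had 41.3, 21.1 and 24.5 CPM at day 28, 42.9 and 47.3 CPM at day 7 and 2.65 to 8.67 CPM in controls (2.78 ± 0.43 at day 28, edgeR adjusted p = 0.0012). It was at 0 CPM in endothelium-type nuclei of day 28 and 1.45 CPM in those of day 7.

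A pair of falls held as widely. Ftcd, an enzyme of histidine and folate catabolism (chromosome 10, 76575648 to 76590338, plus strand), had 41.3, 22.9 and 14.7 CPM at day 28, 9.97 and 12.2 CPM at day 7 and 760, 426, 506 and 498 CPM in controls (-4.49 ± 0.36, edgeR adjusted p = 1.1e-05). Col6a6, a collagen VI chain, had 3.44, 0 and 19.6 CPM at day 28, 14.6 and 26.0 CPM at day 7 and 197 to 238 CPM in controls (-4.60 ± 0.54, edgeR adjusted p = 0.00022). The day 28 calls of both stood in all 19 alternative fits. Endothelium-type nuclei of controls held 343 CPM of Ftcd and 93.5 CPM of Col6a6, below the S3-type control level. The other leading falls at day 28 were Mt2, Apoc3, Ugt1a10, Caln1, Rarres2, Cyp4a14, Clec2h and mt-Nd4. At day 7 they included Mas1, Rpl10-ps3, Prdm8, G0s2, Mrap2, Apoc3, Pbk, Galnt9 and Serpine3, each at no more than 3.05 CPM in either day 7 library.

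Metabolic lists had members lower than in controls at both times. Over all genes tested, 8.08% were called lower at day 28 and 17.4% at day 7. Of 27 genes of fatty acid oxidation and peroxisome, 7 were lower than in controls at day 28 and 16 at day 7, with median log2 changes of -0.78 and -1.13. Acaa1a, the peroxisomal thiolase, had 24.1, 29.9 and 11.4 CPM at day 28, 16.9 and 22.9 CPM at day 7 and 91.3 to 140.0 CPM in controls (-2.48 ± 0.33 at day 28, edgeR adjusted p = 0.00061). Of 10 gluconeogenesis and fructose genes, 3 were lower at day 28 and 8 at day 7. Khk, the first enzyme of fructose breakdown, had 86.0, 26.4 and 34.4 CPM at day 28, 33.7 and 39.7 CPM at day 7 and 194 to 338 CPM in controls (-2.45 ± 0.37, edgeR adjusted p = 0.0011). Of 13 amino acid and creatine genes, 5 were lower at day 28 and 7 at day 7, Prodh2 and Ftcd among them, and 1 was higher at each time. Of 13 glutathione and antioxidant genes, 5 were lower at day 28 and 8 at day 7. Gpx3, the secreted glutathione peroxidase made by proximal tubule, had 481, 185 and 116 CPM at day 28, 455 and 834 CPM at day 7 and 1443 to 2344 CPM in controls (-2.95 ± 0.44 at day 28, edgeR adjusted p = 0.0011). Organic anion and drug handling genes were lower in 8 of 19 at day 28 and 11 of 19 at day 7, and Abcc4 was higher at both times. Of 9 androgen-responsive genes, 2 were lower at day 28 and 5 at day 7. Once the barcode set was a term, 0.17% of all genes were called lower at day 28 and 0.215% at day 7. Of the fatty acid, gluconeogenesis and androgen lists none then had a called member at either time. Their members with an unadjusted p under 0.05 numbered 6, 3 and 2 at day 28. The corresponding counts at day 7 were 6, 7 and 1. The list medians then were -0.52, -0.49 and -0.30 at day 28. Directly between day 28 and day 7, none of the 27 fatty acid genes was called by edgeR (2 had an unadjusted p under 0.05 and DESeq2 called 1), and of the 10 gluconeogenesis and fructose genes Pck1 alone was. Between these times 2.01% of all genes tested were called higher and 0.746% lower.

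Identity genes of the earlier segments that the rule did not use were also lower. Of 14 tested, 5 were called lower at day 28 and 8 at day 7, and none higher. Over all genes tested, 8.08% and 17.4% were called lower. Slc34a1, which marks all segments and is strongest in the early ones, had 1802, 653 and 1852 CPM at day 28, 912 and 692 CPM at day 7 and 2856 to 3998 CPM in controls (-1.27 ± 0.33 at day 28, edgeR adjusted p = 0.021). Slc7a8, a basolateral carrier of neutral amino acids, had 27.5, 35.2 and 42.5 CPM at day 28, 33.7 and 29.0 CPM at day 7 and 78.0 to 156 CPM in controls (-1.67 ± 0.30, edgeR adjusted p = 0.0029). Of NF-kB and chemokine genes, 10 of 15 were higher at day 28 and 11 at day 7, where 8.83% and 16.1% of all genes tested were. Birc3, an inhibitor of apoptosis induced by NF-kB, had 72.2, 95.1 and 113 CPM at day 28, 167 and 186 CPM at day 7 and 3.58 to 13.0 CPM in controls (3.45 ± 0.35, edgeR adjusted p = 9.4e-05), with 217 CPM in endothelium-type nuclei of day 28. Il34, a macrophage growth factor, had 382, 428 and 419 CPM at day 28, 564 and 859.6 CPM at day 7 and 86.7 to 171 CPM in controls (1.67 ± 0.25, edgeR adjusted p = 0.0011), with 563 CPM in endothelium-type nuclei of day 28. In each day 28 library both were below its endothelium-type level, other than Birc3 in mouse 2.

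**Figure D5:**
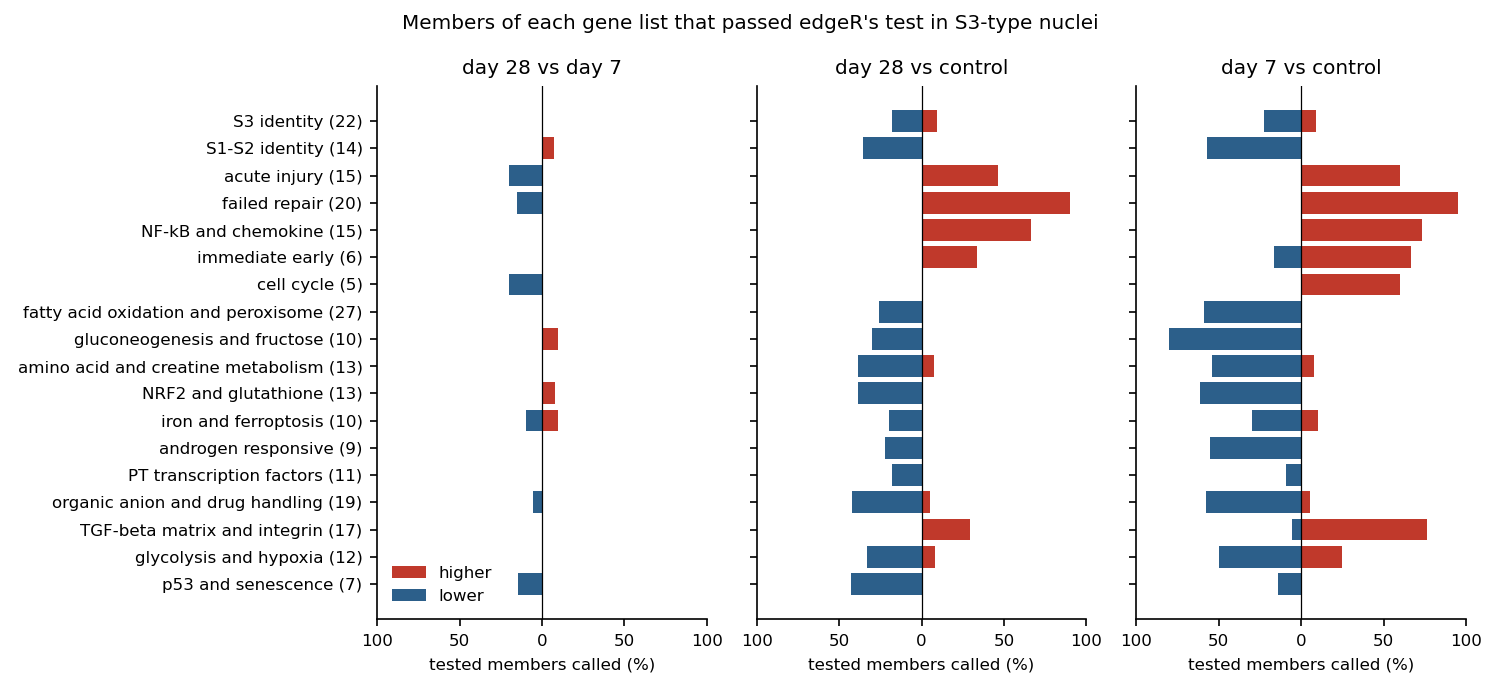
Members called higher and lower by edgeR in each gene list, for day 28 against day 7, day 28 against control and day 7 against control, as percent of the tested members. Failed repair had 18 of 20 called higher at day 28 and 19 of 20 at day 7 against control, and the fatty acid list 7 and 16 of 27 called lower. Over all genes tested, 8.83% and 16.1% were called higher, and 8.08% and 17.4% lower.

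Whether S3-type nuclei responded unlike S1-S2-type nuclei of the same libraries was tested as the difference of the 2 log2 changes, with the library as a block. For day 28 against day 7, 93 of 11465 genes (0.811%) changed more upward in S3-type and 80 (0.698%) more downward. With the rule applied without Cyp7b1, 17 of 10924 genes were called more upward and 42 more downward. Chrm3, the M3 muscarinic acetylcholine receptor, had 262, 305 and 281 CPM in S3-type nuclei at day 28 and 156 and 124 CPM at day 7, against 58.8, 20.5 and 13.7 CPM and 44.8 and 71.3 CPM in S1-S2-type nuclei. In S3-type nuclei every day 28 library lay above those of day 7, and in S1-S2-type nuclei the 2 groups overlapped (difference 2.33 on the log2 scale, edgeR adjusted p = 0.00020). Nxph1, a neurexophilin, had 32.7, 17.9 and 58.5 CPM in S3-type nuclei at day 28 and 2.98 and 2.99 CPM at day 7, against 0, 0.818 and 0 CPM and 3.87 and 2.42 CPM in S1-S2-type nuclei (edgeR adjusted p = 0.011). The other leading differences were upward for Rtl4, Lcp1, Pde3a and Glt1d1 and downward for Ano3, Col8a1, Kcnh7, Amph, Wt1 and Kirrel. For day 28 against control, 232 genes (2.02%) changed more upward and 135 (1.18%) more downward in S3-type nuclei, and with the barcode set as a term 11 were called, none of the 12 leading ones among them.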

How the data were processed

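Nuclei of 9 mouse kidneys were profiled as 10x Chromium single-nucleus libraries. The authors deposited raw UMI counts per gene and nucleus, 1 table for IRI and 1 for controls. Cell Ranger, STAR and Seurat are listed without versions, and mm10 as the build, per the submitters' processing notes. Which library used the v2 or v3 kit was read here from the barcode sets. Doublets were gated out at the sorter, per the labels' protocols, and no doublet caller was run. Coordinates and gene types come from GENCODE.

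There were 19342 genes listed for IRI and 17455 for controls, and the 16939 in both were compared. Counts were summed per library over S3-type nuclei and tested with edgeR 4.0.16 in R 4.3.3 (TMM, filterByExpr, quasi-likelihood F test, 9 libraries in 1 fit, Benjamini-Hochberg over 8844 genes, threshold 0.05). The 7 genes of the selection were left out of the tests. CPM of genes are scaled by TMM, and those of the selecting genes, of marker lists and of other nuclei are not. Fitted changes are log2. The SE is the change over the square root of F. Endothelium-type and thick-limb-type nuclei had 3 or more UMIs of that type's markers and more than of all 7 selecting genes. Single values were compared by two-sided exact permutation over libraries. P-values measure the spread of these mice. Intervals and floors would cover counting error only.

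Named genes were the 10 largest rises and falls per comparison past the threshold, with at least 10 CPM in the higher group and no overlap between groups (predicted genes left out), up to 5 per list by smallest p, and 6 interactions per direction. A gene that this rule names is not reported here. The members, lists and this rule were chosen with earlier results of these data known. Replicate numbers were not taken to pair mice, since correlations of same-numbered deviations ran between -0.205 and 0.035. On simulated data the test recovered 70% of 4-fold and 7% of 2-fold changes between day 28 and day 7 among 8844 genes, and 84% and 22% between day 28 and control. There were 0 calls in the wrong direction and 10 and 6 calls among unchanged genes. The simulated libraries held no difference of barcode set, reporter line or sort, so these counts do not cover calls that such differences could give. Alternatives were another scaling, DESeq2 1.42.0, no filter, other selection thresholds, a barcode-set term, a replicate block and leaving out each mouse. Chosen after seeing the data were the rule without Cyp7b1 and the members with another selecting gene. The fits on 1 barcode set were planned, with the sets read from the barcodes.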

Additional observations from a re-analysis of the deposited data

Results flagged for a closer look

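Among the 96 groups of 4 controls examined for the genes named in the text, 14 had 1 library far from the other 3, where chance flags about 1 in 20 groups. The highest control stood apart for B3gat1 at 26.0 CPM, Pard3bos1 at 1.06 CPM, Dchs2 at 13.0 CPM, Kcnq5 at 14.9 CPM, CT010465.1 at 2.44 CPM, Caln1 at 217 CPM and Rarres2 at 73.9 CPM. It also stood apart for Spaca7 at 0.597 CPM, Sox9 at 0.597 CPM, Ptchd1 at 0.812 CPM, Rpl10-ps3 at 82.3 CPM, Slc1a1 at 528 CPM and Prodh2 at 160 CPM. The lowest control stood apart for Mt2 at 13.7 CPM.

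The change between day 28 and control differed between S3-type and S1-S2-type nuclei (edgeR quasi-likelihood test of the difference, adjusted p under 0.05). In log2 units the difference was 6.11 for Atp6v1g3, 5.91 for AC140300.3, 4.65 for Nxph1, 4.21 for Acer2, 4.12 for Akr1c18 and 3.65 for Gucy1a1, and -6.72 for Efcab5, -4.72 for Gfra1, -4.08 for Ccdc85a, -4.02 for Lrrc9, -3.67 for Npl and -3.60 for Smpdl3b. None was called with the barcode set as a term. In S1-S2-type nuclei of day 28, Atp6v1g3 and AC140300.3 had 0 CPM in every library and Nxph1 and Akr1c18 at most 0.818 CPM. In S3-type nuclei of day 28, Efcab5 had 0 CPM in every library. The sizes for these genes therefore rest on values at or near 0. AC140300.3 did not rise in S3-type nuclei, with a mean of 8.43 CPM at day 28 and 12.4 CPM in controls. Acer2 and Gucy1a1 rest on day 28 mouse 3, at 115 and 55.1 CPM. Atp6v1g3, a gene of intercalated cells, rests on day 28 mouse 1 at 39.2 CPM. Distal and collecting duct markers were highest in these libraries, at 2244 CPM in mouse 3 and 1477 CPM in mouse 1, with Slc8a1 as 81.1% and 57.3% of the list's UMIs, and their part in the result was not tested.

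Between day 28 and day 7 the difference was 6.23 for Nxph1, 4.35 for Rtl4, 2.90 for Lcp1, 2.39 for Pde3a, 2.38 for Glt1d1 and 2.33 for Chrm3, and -5.25 for Ano3, -3.33 for Col8a1, -3.25 for Kcnh7, -2.75 for Amph, -2.71 for Wt1 and -2.41 for Kirrel. The size for Nxph1 rests on 0, 0.818 and 0 CPM in S1-S2-type nuclei of day 28. Pde3a rests on day 28 mouse 3 at 109 CPM, against 19.6 and 25.1 CPM in the other day 28 mice, and Rtl4 on day 28 mouse 1 at 78.5 CPM, against 3.59 and 18.4 CPM. Each was called in 3 of 9 alternative fits. Col8a1 was called in 2 of 9, Lcp1 and Wt1 in 4 of 9, and the remaining leading genes in 5 to 8 of 9.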

How the results depend on the processing

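Counts of called genes moved by more than 1.5 times in several fits. Between day 28 and day 7 (244) they were 404 with DESeq2, 547 without the filter, 139 on all genes of the IRI table, 153 for the rule without Cyp7b1, 85 with the replicate block and 29 to 284 leaving out a mouse. Between day 28 and control (1496) they were 74 with the barcode term, 33 within 1 barcode set, 2251 and 910 at 2 and 5 UMIs, 730 without nuclei with other-type markers, 840 with the replicate block and 710 to 2424 leaving out a mouse (2424 without day 28 mouse 1). Between day 7 and control (2971) they were 62 with the barcode term, 1979 at 5 UMIs, 1750 without nuclei with other-type markers and 1139 to 3079 leaving out a mouse. The interaction of day 28 with control (367) gave 11 with the barcode term and 188 to 409 leaving out a mouse. That with day 7 (173) gave 106 at 5 UMIs, 59 without Cyp7b1 and 53 to 247. With the replicate block both interactions gave 0 edgeR calls, with 666 and 487 genes at an unadjusted p under 0.05. The differences in share reversed on the proximal tubule denominator (-3.22, 5.71 and 8.92 points). The day 28 to control difference was -15.0 among nuclei of 1000 or more UMIs (exact permutation p = 0.0286). It was -5.55 at 5 UMIs (p = 0.171, exact) and -8.90 with nuclei of 1000 or more UMIs thinned before the selection (p = 0.0857, exact), with overlap in both of these. The Havcr1 or Vcam1 difference from control ran 7.42 to 8.77 points leaving out a mouse, where the threshold cannot be reached. Under the barcode term the changes of Spaca7 (-1.32 at day 28, -0.14 at day 7), Gpx3 at day 7 (0.0683), AC140300.3 (-0.71) and Gucy1a1 (-5.54) turned sign, as did Gucy1a1 without Cyp7b1 (-1.06) and leaving out a mouse (-0.98 to 4.39, -0.98 without day 28 mouse 3). The cause was not tested. Among the IRI libraries the S3-type nuclei of day 28 mouse 1 held the fewest UMIs, 295115.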
